A study of Mus musculus with 8 samples.

Results

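The cytosolic ribosomal protein genes are those whose symbols name a protein of the large (Rpl) or small (Rps) subunit of the ribosome outside the mitochondrion. They were chosen by symbol: a stem of Rpl or Rps followed by a digit, or Rplp0, Rplp1, Rplp2 and Rpsa, without pseudogene (-ps) and related-sequence (-rs) names, without the Rps6k kinases, and with at least 100 counts summed over the 8 libraries. Of 52997 symbols in the deposited table, 93 matched the name and 84 of them reached the minimum, and these 84 are called members below. All 84 were among the 11490 genes with enough counts to be tested. Members held 786484 counts, from 103 to 83557 each, with a median of 5216.5. The symbols just outside the minimum were Rps27rt with 84 counts, Rpl39l with 44 and Rpl37rt with 27. Those just inside were Rps3a3 with 103, Rpl24 with 166 and Rps19bp1 with 201.

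The symbol rule gathers genes of different kinds. Among the members, 77 are the standard ribosomal proteins and are called core members here, 46 of the large and 31 of the small subunit. Another 6 are relatives of a core gene: Rpl7l1, Rpl22l1, Rpl36al, Rps27l, Rps4l and Rps3a3. GENCODE M21 annotates Rps4l as a transcribed processed pseudogene and Rps3a3 as a processed pseudogene. The last, Rps19bp1, encodes a protein that binds Rps19 and is not itself a ribosomal protein. Fau and Rack1 encode ribosomal proteins too but lie outside the symbol rule, and they are described with the other translation genes.

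The libraries hold RNA of CD4+ T cells sorted from the liver of Aire-deficient mice on a C57BL/6 background that carry a GFP reporter of Foxp3. Aire drives the display of tissue antigens in the thymus. The sorted cells were live, CD45+, TCRb+ and CD4+ and lacked the Foxp3 reporter, so regulatory T cells were gated out. They were split by surface PD-1, an inhibitory receptor that T cells raise after antigen contact. The 4 groups, each of 2 libraries, were PD-1+ cells at 10 days of age, PD-1+ cells at 5 days, PD-1- cells at 10 days and PD-1- cells at 5 days. Every group shares the loss of Aire and the reporter, and no Aire-sufficient mice were included. Whether each library had its own animals is not in the labels. At 5 days replicates 2 and 3 differed in sex by their Y-linked and Xist counts, given below, so they came from different animals, while at 10 days the spread between libraries may be technical. In a bulk sample, fewer cells with a transcript and less of it per cell cannot be told apart.

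A ribosome needs 1 copy of nearly every ribosomal protein, and cells make these proteins in step with ribosomal RNA. Most of their mRNAs begin with a run of pyrimidines (C or T) right at the transcription start, the 5′ terminal oligopyrimidine or TOP motif, through which the mTOR kinase and the RNA-binding protein Larp1 set their translation and stability. Resting T cells hold few ribosomes, and antigen stimulation raises ribosome assembly before division. Ribosomal protein mRNA levels and the rate of protein synthesis can move apart, because TOP mRNAs are regulated mainly in translation.

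The bases around the annotated start are shown for the 4 core members with the largest falls in PD-1+ cells and for 3 of the 4 members that rose, to show where such a run lies. Each window holds 15 bases before and 15 bases from the start, is written 5′ to 3′ on the gene's strand, and comes from RefSeq on GRCm38.p6. Capitals mark the longest pyrimidine run in the window, and for Rps24 and Rps27l, which have 2 annotated starts each, the start with the longer run was taken.
Rpl31 (chr1:39367836-39367865, + strand): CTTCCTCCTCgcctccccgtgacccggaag
Rps27 (chr3:90213634-90213663, - strand): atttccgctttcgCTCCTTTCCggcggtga
Rpl12 (chr2:32961697-32961726, + strand): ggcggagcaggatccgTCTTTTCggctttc
Rps24 (chr14:24490663-24490692, + strand): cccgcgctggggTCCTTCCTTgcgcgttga
Rps27l (chr9:66946071-66946100, + strand): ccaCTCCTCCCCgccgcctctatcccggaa
Rpl7l1 (chr17:46782642-46782671, - strand): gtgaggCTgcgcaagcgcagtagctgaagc
Rps19bp1 (chr15:80264292-80264321, - strand): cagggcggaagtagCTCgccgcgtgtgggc
Rpl31, Rps27, Rps24 and Rps27l had runs of 10, 9, 9 and 9 bases, and Rpl12 had 7. The runs of Rps27 and Rps24 spanned the annotated start, and that of Rpl12 lay just after it. Those of Rpl31 and Rps27l lay wholly before it, so they would not be part of an mRNA that begins there. For Rpl31 the annotations differ, since the gene start in GENCODE M21, chr1:39367842, lies within the marked run. Rpl7l1 and Rps19bp1 had runs of 2 and 3 bases. RefSeq windows were matched for 62 of 84 members. A pyrimidine run of at least 8 bases, at any position within this 30-base window, was present in 28 of 73 member windows (38.4%), against 12.0% of the 32851 windows in the table. In the 300-base window from 250 bases before to 50 bases after the start, searched on both strands and with overlapping matches counted once, CTTTCC was in 50.7% of member windows and 26.6% of all windows. CCGGAAG, the core of many Ets-family sites, was in 35.6% of member windows, against 8.86% of all windows and 19.4% of windows of tested genes. AAGATGG, a YY1 core, was in 16.4% of member windows and 6.34% of all windows. GGGCGG, the GC box, was in 63.0% of member windows, against 35.7% of all windows and 62.6% of windows of tested genes. CTTTCC can share bases with the pyrimidine run. These are matches of letters and say nothing of binding.

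Library totals ranged from 1473216 to 3019551 counts. Pdcd1, the gene of PD-1, had 564 to 1953 counts in PD-1+ libraries and 1 to 5 counts in PD-1- libraries. Aire had 0 to 2 counts in every library, which checks nothing here because all groups lack it. Markers of CD4 T cells, 9 of 9 with counts, summed to 6843 to 11486 CPM (counts scaled to a common library total) in PD-1+ libraries and 8004 to 9448 CPM in PD-1- libraries. All genes of the marker lists of other cell types had counts in at least 1 library, so none was at 0 throughout. Hepatocyte markers (8 of 8) summed to 25.4 to 69.5 CPM in PD-1+ libraries and 11.1 to 20.9 CPM in PD-1- libraries. B cell markers (5 of 5) summed to 250.0 to 293 CPM in PD-1+ libraries and 547 to 675 CPM in PD-1- libraries. Endothelial and stromal markers (5 of 5) summed to 99.5 to 135 CPM in PD-1+ libraries and 309 to 386 CPM in PD-1- libraries. Hepatocyte sums were thus higher, and B cell and endothelial sums lower, in every PD-1+ library than in any PD-1- library. Of the markers with enough counts to be tested over both ages, 3 of 4 hepatocyte genes rose and 1 was not called. Of 4 B cell genes 1 fell and 3 were not called, and the endothelial list had only 1 tested gene, which fell (edgeR). Erythroid markers (11 of 11) summed to 127 to 186 CPM in PD-1+ libraries and 131 to 166 CPM in PD-1- libraries. CD8 T cell markers (2 of 2) summed to 5.42 to 27.1 CPM in PD-1+ libraries and 30.0 to 48.7 CPM in PD-1- libraries. Macrophage markers (8 of 8) summed to 34.7 to 52.8 CPM in PD-1+ libraries and 31.8 to 80.8 CPM in PD-1- libraries. NK and innate lymphoid markers (4 of 4) summed to 0.451 to 4.92 CPM in PD-1+ libraries and 1.66 to 22.2 CPM in PD-1- libraries, and neutrophil markers (5 of 5) reached 4.23 CPM in PD-1+ and at most 2.65 in PD-1- libraries. The CD8 sum was thus also lower in every PD-1+ library than in any PD-1- library. Over both ages 1 of the 2 genes fell, with a log2 fold change of -1.92, and the other had 0.62 and was not called (edgeR). Of 3 NK and innate lymphoid genes tested over both ages 2 fell and 1 was not called. Of 5 macrophage genes 1 fell and 4 were not called, and of 2 erythroid genes 1 rose and 1 fell (edgeR). The part of the lists that moved with PD-1 in the results below was not tested. Both 5-day replicate 3 libraries were the ones with Y-linked counts, 601 in PD-1+ and 672 in PD-1- cells, and the other 6 had 0. These male libraries had 1 and 5 counts of Xist, against 698 to 1842 in the other 6, so sex and age are partly mixed.

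Members took a smaller share of the counts in PD-1+ than in PD-1- libraries. The share was 2.64% and 3.12% of the library total in PD-1+ 10-day replicates 1 and 2, and 4.05% and 3.98% in PD-1+ 5-day replicates 2 and 3. In PD-1- cells it was 4.30% and 4.94% at 10 days and 5.01% and 5.56% at 5 days. All 4 PD-1+ libraries lay below all 4 PD-1- libraries, and within each population both 10-day libraries lay below both 5-day ones. The mean was 3.45% ± 0.68 in PD-1+ and 4.95% ± 0.52 in PD-1- libraries (SD, n = 4 each). No test is given for this sum over members.

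**Figure D1:**
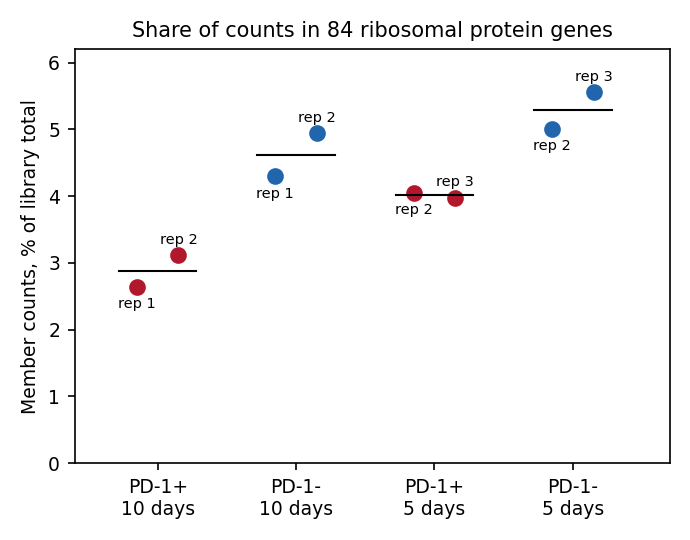
Percent of each library's total counts that fell in the 84 members, by group (each point is 1 library, labelled by replicate number, and each line is the mean of 2). PD-1+ libraries lay between 2.64% and 4.05%, all below the PD-1- libraries, which lay between 4.30% and 5.56%.

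Levels of different genes were compared per length, as mean CPM over the 8 libraries per kilobase of the longest annotated transcript. Here and below CPM are scaled by the summed counts of the tested genes and the TMM factor of each library. Rpl4 was highest with 2888 CPM per kilobase, then Rplp0 with 2721 and Rpl8 with 1915. Rpl4 and Rpl8 are structural proteins of the large subunit and Rplp0 is the base of its stalk. Rps3a3 was lowest with 7.19, below Rpl24 with 13.4 and Rps19bp1 with 13.5. Rpl24 is a core protein of the large subunit, and it was the lowest of the core. Core members shared between 5.58% and 99.7% of their 25-base words with other annotated genes, and how reads that fit several places were counted is not given in the sources used here. Across the 77 core members, Spearman's rho between the share of such words and the level per length was -0.02, and between that share and the PD-1 fold change 0.07. These are descriptions across genes of the same 8 libraries.

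Between PD-1+ and PD-1- cells over both ages, most core members were lower in PD-1+ cells and a few relatives were higher. Of the 84 members, 53 fell, 4 rose and 27 were not called at an adjusted p below 0.05. Of all tested genes, 19.6% were called lower and 21.9% higher. The median log2 fold change of members was -0.44, against -0.01 over all tested genes. All 53 members that fell were core members, 28 of 46 in the large subunit and 25 of 31 in the small subunit. Among genes with at least 1000 counts in all, 24.0% were called lower, and 53 of the 76 members with such counts were. The test was edgeR's quasi-likelihood test in an additive model with age. With a term for the replicate number within age, 38 members fell. The number of members that fell was 28 to 35 without any single one of 5 libraries: 28 without PD-1- 10-day replicate 2, 31 without PD-1+ 10-day replicate 1, 33 without PD-1+ 10-day replicate 2, 34 without PD-1- 5-day replicate 3 and 35 without PD-1+ 5-day replicate 3. It was 29 without both male libraries. The number that rose was 2 without PD-1+ 5-day replicate 2.

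The largest fall was that of Rpl31, a large subunit protein near the exit of the nascent chain. Its level was 61.6, 60.1, 106 and 85.5 CPM in PD-1+ cells and 119, 134, 149 and 229 CPM in PD-1- cells, in each case with 10-day replicates 1 and 2 before 5-day replicates 2 and 3. All PD-1+ libraries lay below all PD-1- libraries. The log2 fold change was -1.01 ± 0.16 (SE; edgeR, Benjamini-Hochberg adjusted p = 0.000142). Rpl31 lies on GRCm38 chr1:39367842-39371911.

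Rps27, a zinc-finger protein of the small subunit, had 158, 205, 222 and 211 CPM in PD-1+ cells and 344, 412, 339.9 and 439 CPM in PD-1- cells. The highest PD-1+ library was well below the lowest PD-1- library, and age made little visible difference. Its log2 fold change was -0.95 ± 0.14 (SE; edgeR, adjusted p = 9.25e-05).

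Rpl12, which sits beside Rplp0 at the foot of the stalk, had 288, 342, 563 and 553 CPM in PD-1+ cells and 687, 788, 856 and 838 CPM in PD-1- cells. The groups did not overlap, and the 10-day PD-1+ libraries were the lowest. Its log2 fold change was -0.91 ± 0.15 (SE; edgeR, adjusted p = 0.000174).

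Rps24, a small subunit protein mutated in some human patients with Diamond-Blackfan anaemia, had 179, 216, 264 and 245 CPM in PD-1+ cells and 366, 410.4, 372 and 514 CPM in PD-1- cells. Its groups did not overlap either, and the log2 fold change was -0.89 ± 0.14 (SE; edgeR, adjusted p = 0.000148). Rps20, in the head of the small subunit, and Rps28, a small protein next to the mRNA exit, fell with log2 fold changes of -0.85 ± 0.15 and -0.83 ± 0.17 (SE; edgeR, adjusted p = 0.000473 and 0.00115). Rps20 overlapped between the groups, since both PD-1+ libraries at 5 days (606 and 590.1 CPM) lay above PD-1- 10-day replicate 1 (571 CPM). The fold changes of Rpl31, Rps27, Rpl12, Rps24, Rps20 and Rps28 stayed past the threshold under every alternative run.

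**Figure D2:**
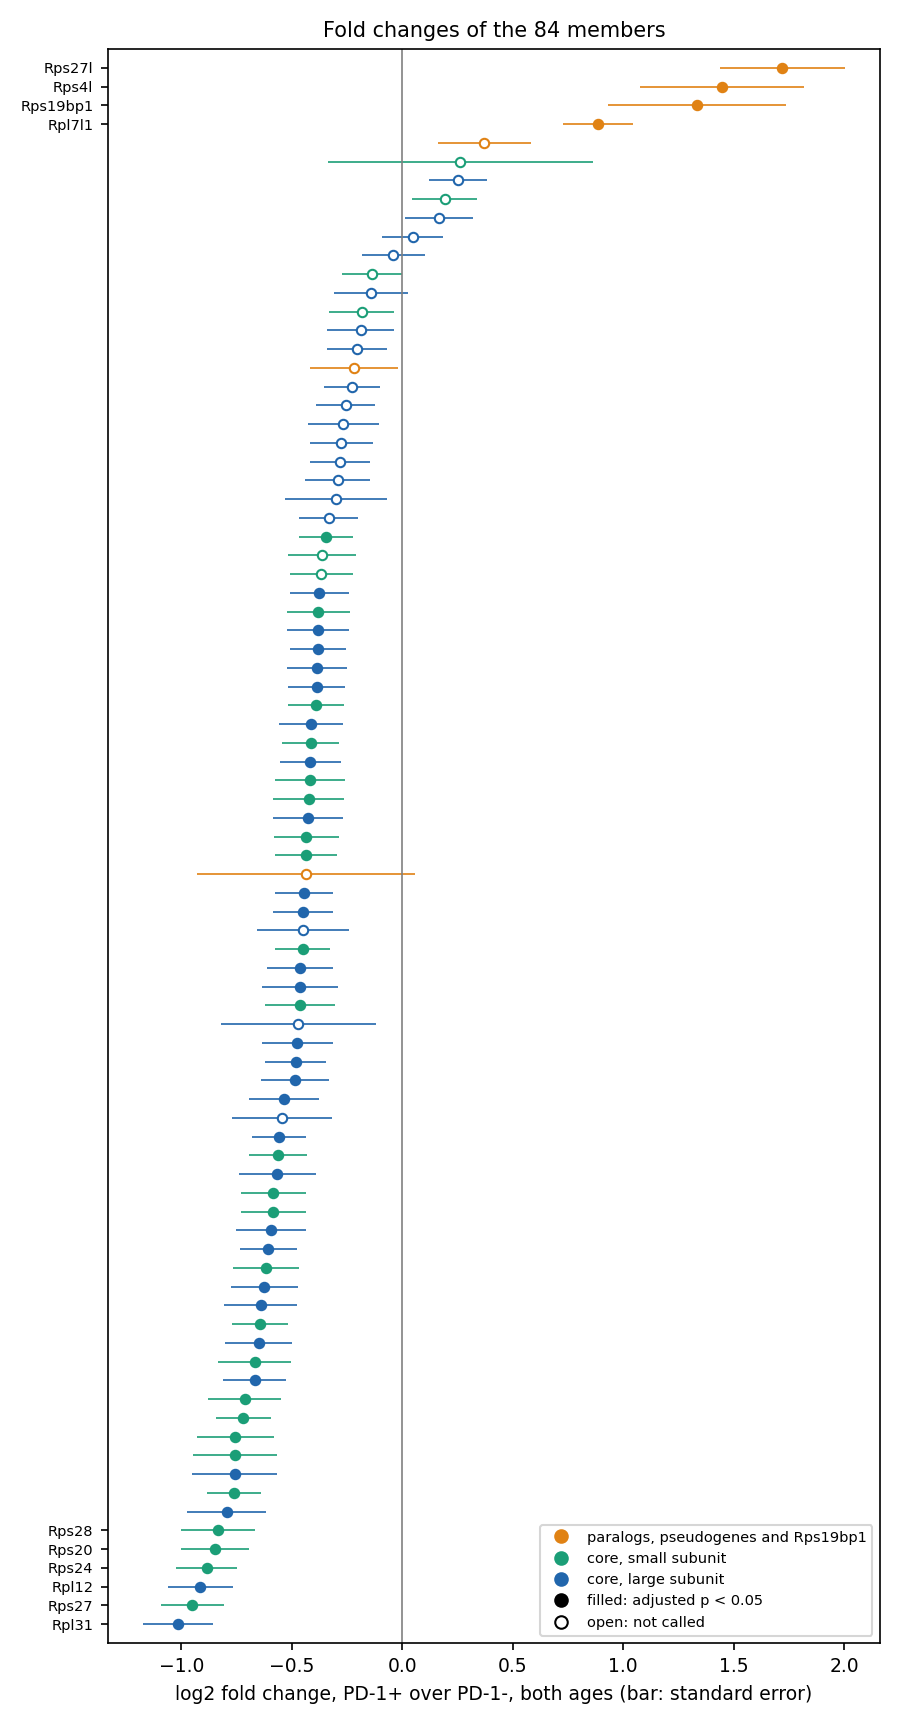
Log2 fold change of each of the 84 members between PD-1+ and PD-1- cells over both ages (x axis; bars are standard errors), ranked, with colours for subunit and kind and filled points for adjusted p below 0.05 (edgeR) and names at the 6 largest falls and the 4 rises. The 4 filled points on the right are Rps27l, Rps4l, Rps19bp1 and Rpl7l1, and the 53 on the left are all core members, down to Rpl31 at -1.01.

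The stalk of the large subunit, made of Rplp0, Rplp1 and Rplp2, recruits the elongation factors. Rplp1 and Rplp2 fell, with log2 fold changes of -0.62 ± 0.15 and -0.48 ± 0.15 (SE; edgeR, adjusted p = 0.00399 and 0.0203). Rplp0, with a log2 fold change of -0.33 ± 0.13, was not called (edgeR, adjusted p = 0.0584), but was called lower with upper-quartile factors and with library totals (edgeR, adjusted p = 0.0226 and 0.0039). The call of Rplp2 was lost without any single one of 5 libraries, with adjusted p of 0.0524 to 0.0782 (edgeR): both PD-1+ 10-day replicates, PD-1+ 5-day replicate 3, PD-1- 10-day replicate 2 and PD-1- 5-day replicate 3. Without both male libraries its adjusted p was 0.107 (edgeR).

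Several core members with known roles beyond the ribosome were spread over the range. Rpl5, which with Rpl11 can bind and inhibit the ubiquitin ligase Mdm2, fell with a log2 fold change of -0.53 ± 0.16 (SE), while Rpl11 had -0.04 ± 0.14 and was not called (edgeR, adjusted p = 0.0136 and 0.852). Rpl22, which is needed for alpha-beta T cell development in mice, fell with a log2 fold change of -0.44 ± 0.13 (SE; edgeR, adjusted p = 0.0149). The Rpl5 call was lost without PD-1+ 10-day replicate 1 or PD-1- 10-day replicate 2 (edgeR, adjusted p = 0.0612 and 0.0528), and that of Rpl22 without either 5-day replicate 3 library (0.0757 without the PD-1+, 0.0642 without the PD-1- one and 0.170 without both).

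Rps6, the target of the S6 kinases, had a log2 fold change of -0.14 ± 0.14, Rpsa, also known as the laminin receptor, 0.19 ± 0.15, Rpl13a, which in human monocytes also takes part in translational silencing, 0.25 ± 0.13, and Rpl41, a very short basic peptide, 0.17 ± 0.15 (SE), and none of these was called. Rpl10, which joins the large subunit late in its assembly, had -0.19 ± 0.15 and was not called, and Rpl10a, an unrelated large subunit protein despite its name, fell with -0.64 ± 0.17 (SE; edgeR, adjusted p = 0.00614). Rps4x, the X-linked small subunit protein, Rps14, in the platform of the small subunit, and Rpl36a fell, with log2 fold changes of -0.64 ± 0.12, -0.76 ± 0.12 and -0.76 ± 0.19 (SE; edgeR, adjusted p = 0.000808, 0.000175 and 0.00522). Rpl3, in the peptidyl transferase region, Rpl7, and Rpl39, which lines the exit tunnel, fell with log2 fold changes of -0.42 ± 0.14, -0.39 ± 0.13 and -0.46 ± 0.17 (SE). The calls of these last 3 were near the threshold (edgeR, adjusted p = 0.0239, 0.0251 and 0.0421) and were lost when single libraries were left out: 4 of the 8 for Rpl3, and 6 of the 8 each for Rpl7 and Rpl39. Without both male libraries the calls of Rpl7 and Rpl39 were lost (edgeR, adjusted p = 0.127 and 0.287), and that of Rpl39 also with DESeq2 (adjusted p = 0.0616) and with no filter on low counts (edgeR, adjusted p = 0.0624).

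Of the 7 members that are not core ribosomal proteins, 4 rose in PD-1+ cells, none fell and 3 were not called. The largest rise was that of Rps27l, the close relative of Rps27 whose gene is a target of Trp53. Rps27l had 24.2, 17.6, 63.3 and 58.2 CPM in PD-1+ cells and 5.18, 9.76, 11.7 and 23.3 CPM in PD-1- cells. Within each age both PD-1+ libraries were above both PD-1- libraries, but PD-1+ 10-day replicate 2 lay below PD-1- 5-day replicate 3. The log2 fold change was 1.72 ± 0.28 (SE; edgeR, adjusted p = 0.000216) and remained past the threshold under every alternative run.

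Rpl7l1, a relative of Rpl7 whose yeast counterpart acts in assembly of the large subunit, had 85.1, 92.1, 125 and 107 CPM in PD-1+ cells and 55.1, 52.0, 50.2 and 62.5 CPM in PD-1- cells. All PD-1+ libraries lay above all PD-1- libraries. It rose by 0.89 ± 0.16 on the log2 scale (SE; edgeR, adjusted p = 0.00042), also past the threshold under every alternative run.

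Rps19bp1, known in humans as an activator of the deacetylase SIRT1, had 8.55, 8.43, 29.9 and 19.6 CPM in PD-1+ cells and 5.51, 7.15, 4.54 and 6.81 CPM in PD-1- cells. PD-1+ libraries were all above PD-1- libraries, at 10 days by little. It rose by 1.33 ± 0.40 on the log2 scale (SE; edgeR, adjusted p = 0.0153), a call that was lost without PD-1+ 5-day replicate 2 or PD-1- 5-day replicate 2 (edgeR, adjusted p = 0.0677 and 0.0718) and without both male libraries (0.0710).

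Rps4l, the transcribed copy of Rps4x, had 6.77, 13.7, 42.2 and 17.2 CPM in PD-1+ cells and 4.53, 3.90, 9.40 and 10.2 CPM in PD-1- cells. PD-1+ 5-day replicate 2 stood far above the rest, and PD-1+ 10-day replicate 1 lay below both 5-day PD-1- libraries. It rose by 1.45 ± 0.37 on the log2 scale (SE; edgeR, adjusted p = 0.00591), and without PD-1+ 5-day replicate 2 the value was 1.07 and not called (edgeR, adjusted p = 0.0537). Rps27l, Rps4l and Rpl7l1 share 23.8%, 31.8% and 26.2% of their 25-base words with other annotated genes, so some reads could have been counted for a copy, while Rps19bp1 shares 0.49%.

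**Figure D3:**
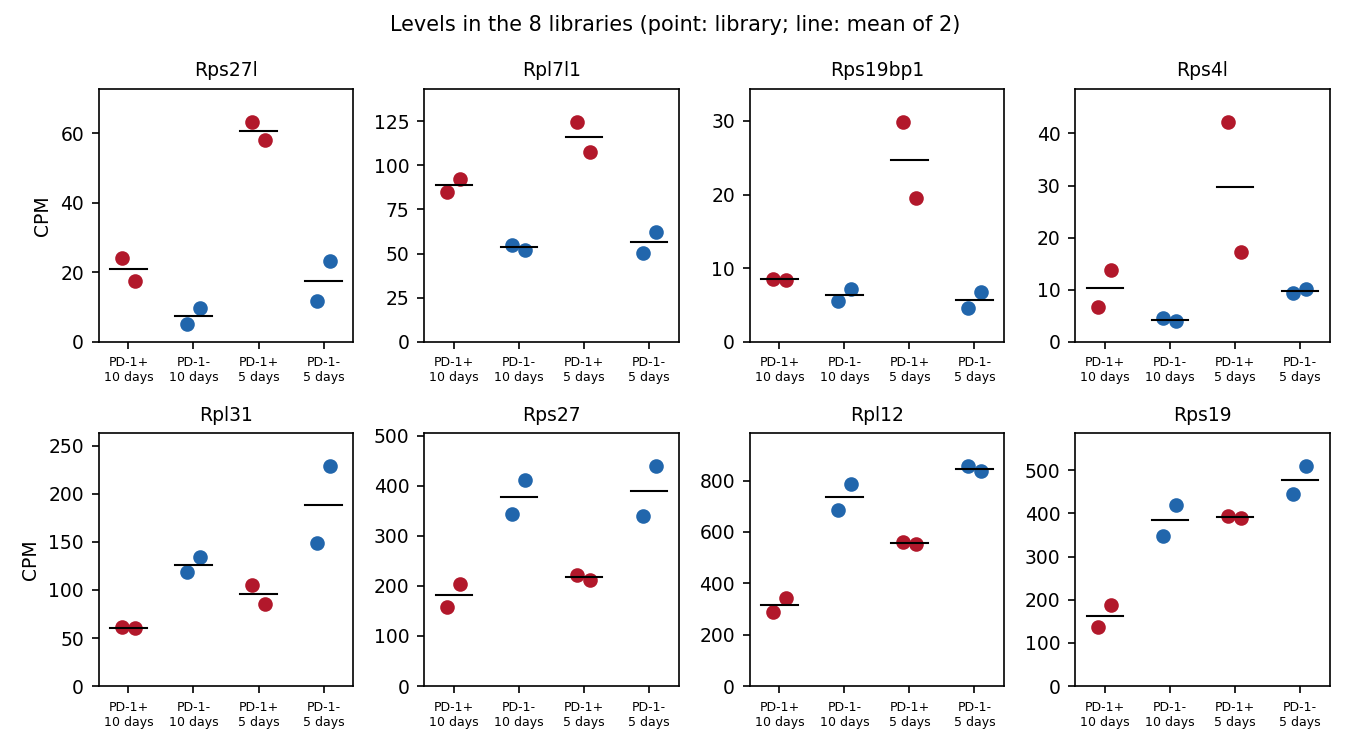
Normalised level (CPM, y axis from 0) of 8 members in the 4 groups, each point 1 library and each line the mean of 2. Rps27l, Rpl7l1, Rps19bp1 and Rps4l were higher in PD-1+ than in PD-1- libraries of the same age, and Rpl31, Rps27, Rpl12 and Rps19 were lower.

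The share of a relative in the summed counts of its pair is free of any scaling between libraries. Rps27l took 13.3% and 7.91% of Rps27l plus Rps27 counts in PD-1+ cells at 10 days and 22.2% and 21.6% at 5 days. In PD-1- cells it took 1.48% and 2.31% at 10 days and 3.32% and 5.04% at 5 days. The PD-1+ shares were all above the PD-1- shares, since Rps27l was higher and Rps27 lower in PD-1+ cells.

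Rpl7l1 took 9.43% and 9.37% of its pair with Rpl7 in PD-1+ cells at 10 days and 9.93% and 8.74% at 5 days. Its PD-1- shares were 5.04% and 3.69% at 10 days and 3.69% and 4.15% at 5 days. Here too the groups did not overlap, and age made no visible difference.

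Rpl36al, which encodes nearly the same protein as Rpl36a, was not called alone, with a log2 fold change of 0.37 ± 0.21 (SE; edgeR, adjusted p = 0.171). It took 44.9% and 49.3% of the pair in PD-1+ cells at 10 days and 58.7% and 52.1% at 5 days. In PD-1- cells it took 26.6% and 33.1% at 10 days and 35.2% and 35.0% at 5 days. Again all PD-1+ shares were above all PD-1- shares.

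Rps4l took 0.946% to 4.35% of its pair with Rps4x in PD-1+ cells and 0.289% to 0.762% in PD-1- cells, without overlap. Rpl22l1, whose expression Rpl22 represses in mice, took 18.1% to 29.6% of its pair in PD-1+ cells and 17.8% to 22.1% in PD-1- cells, and the groups overlapped. Rps3a3 overlapped as well, with 0.263% to 1.03% in PD-1+ and 0.627% to 0.806% in PD-1- cells. Alone, Rpl22l1 had a log2 fold change of -0.22 ± 0.20 and Rps3a3 of -0.44 ± 0.49 (SE), and neither was called (edgeR, adjusted p = 0.41 and 0.511). No test is given for these shares, and none were computed for other gene pairs as a background. A share also rises where the partner falls, and Rps27, Rpl7, Rps4x and Rpl36a were all called lower in the same libraries. The lack of overlap therefore partly restates those calls.

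**Figure D4:**
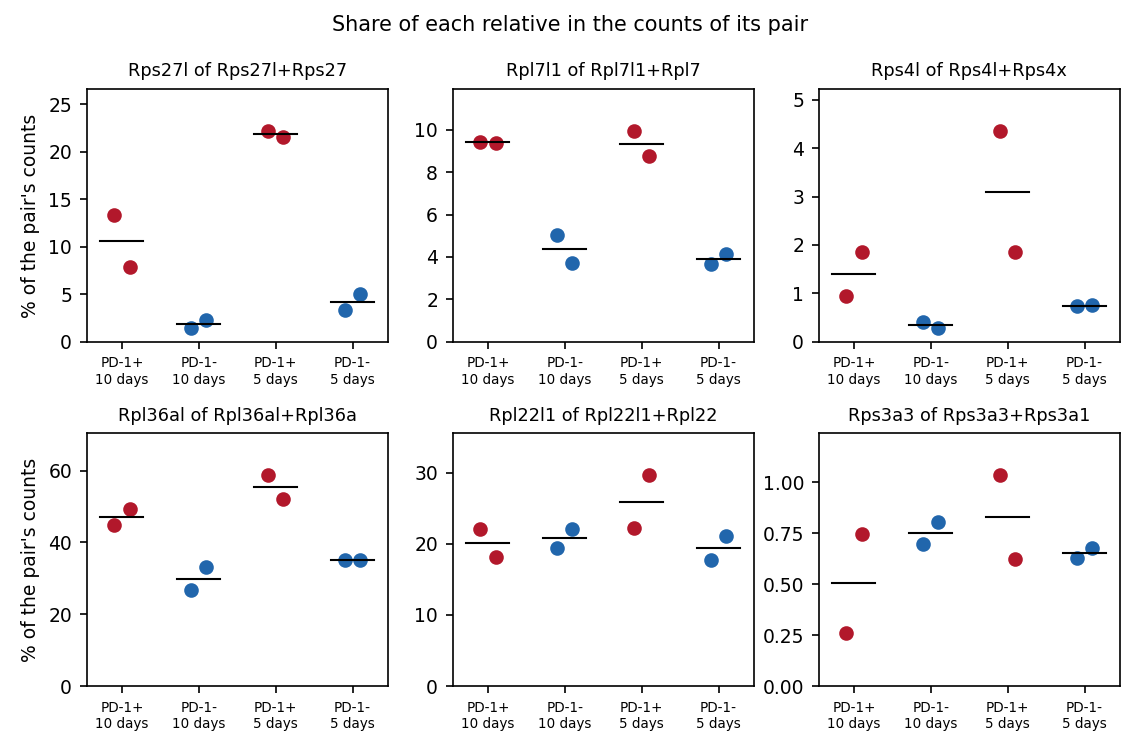
Share of each relative in the summed counts of its pair (percent, y axis from 0, scaled per panel) in the 4 groups, each point 1 library and each line the mean of 2. For Rps27l, Rpl7l1, Rps4l and Rpl36al all PD-1+ libraries lay above all PD-1- libraries, while Rpl22l1 and Rps3a3 overlapped. Shares of other gene pairs were not computed.

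Over all members, 17 had every PD-1+ library below every PD-1- library and 2 had every PD-1+ library above, namely Rpl7l1 and Rps19bp1. Among all tested genes 17.5% and 17.2% had such patterns, so these counts are near the background or below it.

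At 10 days, 58 members fell in PD-1+ cells, 2 rose and 24 were not called (edgeR, all 4 groups in 1 fit). Of all tested genes, 12.9% were called lower and 16.4% higher. The median log2 fold change of members was -0.59, against 0.01 over all tested genes. All 58 were core members, 31 of the large and 27 of the small subunit, and the 3 stalk proteins were among them. Among genes with at least 1000 counts in all, 18.8% were called lower, against 58 of the 76 members of that depth. The largest falls were those of Rps19, Rpl12, Rps20 and Rps28, with log2 fold changes of -1.24 ± 0.17, -1.23 ± 0.14, -1.13 ± 0.16 and -1.12 ± 0.21 (SE; edgeR, adjusted p = 3.33e-05, 5.05e-06, 5.36e-05 and 0.000609). The members' median was -0.51 without PD-1+ 10-day replicate 1 and -0.46 without PD-1- 10-day replicate 2. Fewer members, and fewer of all tested genes, were called lower in both runs.

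The 2 members that rose at 10 days, in log2 fold change, were Rps27l, by 1.57 ± 0.42, and Rpl7l1, by 0.72 ± 0.21 (SE; edgeR, adjusted p = 0.00953 and 0.0145). The Rps27l call was lost without PD-1+ 10-day replicate 1 or PD-1- 10-day replicate 1 (edgeR, adjusted p = 0.0672 and 0.162). The Rpl7l1 call was lost without PD-1+ 10-day replicate 2, PD-1- 10-day replicate 1 or PD-1- 10-day replicate 2 (edgeR, adjusted p = 0.0692, 0.063 and 0.0695).

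At 5 days, 18 members fell in PD-1+ cells, 6 rose and 60 were not called (edgeR). Of all tested genes, 16.7% were called lower and 17.6% higher, so the count of falls is near the background. At 1000 counts or more in all, 22.1% of genes and 18 of 76 members were called lower. The median log2 fold change of members was -0.25, against -0.03 over all tested genes. The falls were 9 in each subunit, and the largest were Rpl31, Rps27, Rps24 and Rpl36a, with log2 fold changes of -0.98 ± 0.21, -0.84 ± 0.17, -0.80 ± 0.17 and -0.73 ± 0.26 (SE; edgeR, adjusted p = 0.0018, 0.00135, 0.0018 and 0.0399). The count of falls changed when 5-day libraries were left out, of which the replicate 3 libraries are the male ones. Such runs leave a 5-day group without a replicate, and fewer of all tested genes were called lower in them too. The members' median was -0.16 without the PD-1+ replicate 3 and -0.14 without the PD-1- replicate 3. It was -0.27 without the PD-1+ replicate 2 and -0.36 without the PD-1- replicate 2. Without both replicate 3 libraries the median was -0.09, against -0.04 over all tested genes. There Rpl31, Rps27 and Rps24 had log2 fold changes of -0.47, -0.58 and -0.47 (edgeR, adjusted p = 0.268, 0.111 and 0.190). The Rpl36a call was lost with DESeq2 (adjusted p = 0.0752) and without any single one of PD-1+ 5-day replicate 2, PD-1- 10-day replicates 1 and 2 and PD-1- 5-day replicate 3 (edgeR, adjusted p = 0.0521 to 0.388), and without both replicate 3 libraries (0.219). Scaled by library totals alone the count of falls was 47, where 2634 of 11490 tested genes were called lower, with a median shift of -0.26 over all genes.

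The members that rose at 5 days, in log2 fold change, were Rps19bp1, by 2.15 ± 0.47, Rps27l, by 1.84 ± 0.37, Rps4l, by 1.60 ± 0.48, Rpl7l1, by 1.05 ± 0.21, and the core members Rpsa, by 0.51 ± 0.13, and Rpl41, by 0.47 ± 0.16 (SE; edgeR, adjusted p = 0.00193, 0.00101, 0.0171, 0.000953, 0.00773 and 0.0274). Rpsa had 1958 and 1986 CPM at 5 days in PD-1+ cells and 1383 and 1389 CPM in PD-1- cells, without overlap. With library totals in place of TMM, no core member was called higher at 5 days, and with upper-quartile factors 1 was. A core call was also lost without PD-1+ 5-day replicate 2 or 3, without PD-1- 5-day replicate 2 and without both male libraries. The Rps4l value was 0.85 and not called without PD-1+ 5-day replicate 2 (edgeR, adjusted p = 0.351), nor was it called without PD-1- 5-day replicate 2 (edgeR, adjusted p = 0.0849).

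The PD-1 comparisons at the 2 ages use different libraries. Of the members that fell, 16 were called at both ages, which is 16 of 58 at 10 days and 16 of 18 at 5 days. Of all tested genes called lower at 10 days 67.9% were also called at 5 days, and of those called lower at 5 days 52.6% were also called at 10 days. Whether a fold change differs between the ages was tested by the interaction. A single member, Rps19, was called, with a PD-1 log2 fold change that was lower at 10 than at 5 days, by a difference of -0.96 ± 0.24 (SE; edgeR, adjusted p = 0.0453). Of all tested genes, 0.923% were called in that direction and 1.2% in the other, so a single call among 84 members is near the background. In the same test 26 members had an unadjusted p below 0.05, all with an estimate below 0, as had 6.67% of all tested genes. DESeq2 called 3 members in that direction, among 145 genes in all. The interaction estimate was below 0 for 80 of 84 members and for 47.3% of all tested genes.

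Rps19, a small subunit protein mutated in many human patients with Diamond-Blackfan anaemia, had 137, 188, 394 and 391 CPM in PD-1+ cells and 349, 419.5, 445 and 509 CPM in PD-1- cells. The 10-day PD-1+ libraries stood apart below all others, while the 5-day PD-1+ libraries lay within the range of the PD-1- libraries. The call was lost without any single one of 6 libraries (edgeR, adjusted p = 0.0682 to 0.168), the exceptions being PD-1+ 10-day replicate 2 and PD-1- 5-day replicate 3. It was also lost with library totals and without both male libraries (edgeR, adjusted p = 0.0851 and 0.0902).

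Between 10 and 5 days, members were lower at 10 days in PD-1+ cells. Of the 84, 54 fell, none rose and 30 were not called (edgeR), and all 84 fold changes were below 0. Of all tested genes, 6.98% were called lower and 7.39% higher. The median log2 fold change of members was -0.65, against 0.05 over all tested genes. At 1000 counts or more in all, 14.5% of genes and 51 of 76 members were called lower. The falls were 27 of 46 core members of the large subunit, 24 of 31 of the small subunit and 3 of the other 7. The members' median was -0.63 without PD-1+ 5-day replicate 2, -0.57 without PD-1+ 10-day replicate 1 and -0.71 without both male libraries. Fewer members, and fewer of all tested genes, were called lower in these runs. With library totals the count of falls was 35, where 449 of 11490 tested genes were called lower, with a shift of 0.24 in the median of all genes. Marker lists moved with age in the same cells. CD4 T cell markers summed to 9948 and 11486 CPM in the 10-day PD-1+ libraries, against 6843 and 7330 CPM in the 5-day ones, and 5 of 9 rose (edgeR). CD8 markers summed to 21.5 and 27.1 CPM at 10 days, against 5.42 and 5.92 CPM at 5 days, and 1 of 2 rose. Macrophage and NK sums were higher, and erythroid sums lower, in both 10-day PD-1+ libraries than in both 5-day ones. Of 5 macrophage markers tested, 1 rose and 3 had estimates below 0. None of 3 NK markers tested was called, and the NK sums were 14 and 13 counts at 10 days, against 1 and 8. Of 2 erythroid markers tested, 1 fell (edgeR). CD4 T cell markers also moved with PD-1 at 10 days, where 5 of 9 rose in PD-1+ cells. At 5 days 0 of the 9 rose and 2 fell (edgeR). The part of these markers in the members' changes was not tested.

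The largest called falls with age in PD-1+ cells were those of Rps27l, Rps19bp1, Rps4l and Rps19, with log2 fold changes of -1.54 ± 0.35, -1.53 ± 0.43, -1.53 ± 0.47 and -1.27 ± 0.17 (SE; edgeR, adjusted p = 0.00809, 0.0265, 0.0398 and 0.000129). These comparisons share the PD-1+ libraries with those between PD-1+ and PD-1- cells. The Rps27l call was lost without PD-1+ 5-day replicate 2 or PD-1+ 10-day replicate 2 (edgeR, adjusted p = 0.0691 and 0.0665), and the Rps4l call without PD-1+ 5-day replicate 2 or PD-1+ 10-day replicate 1 (edgeR, adjusted p = 0.546 and 0.252), and also with DESeq2 (adjusted p = 0.0614) and with library totals (edgeR, adjusted p = 0.0672). The Rps19bp1 call was lost without PD-1+ 5-day replicate 2, PD-1+ 10-day replicate 1 or PD-1+ 10-day replicate 2 (edgeR, adjusted p = 0.267, 0.126 and 0.110). Rps19 kept its call under every alternative run.

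In PD-1- cells no member was called between 10 and 5 days (edgeR), where 0.122% of all tested genes were called lower and 0.148% higher, or 0.252% lower among genes with at least 1000 counts. At an unadjusted p below 0.05 there were 27 members, all lower at 10 days, where 6.0% of all tested genes were lower at that threshold. DESeq2 called none, with 3 adjusted p-values missing. The median log2 fold change of members was -0.29, against -0.01 over all tested genes, and 79 of 84 were below 0, against 50.9% of all tested genes.

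Other genes of translation did not all move with the members. Among ribosomal proteins outside the symbol rule, Rack1, the scaffold on the head of the small subunit, fell in PD-1+ cells over both ages, with a log2 fold change of -0.37 ± 0.13 (SE; edgeR, adjusted p = 0.0321). Fau, which is made as a fusion with a ubiquitin-like protein, had -0.15 ± 0.15 (SE) and was not called. The list held 3 tested genes, and the remaining gene had 0.17 and was not called (edgeR).

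Of 21 tested elongation and ribosome-associated factors, 6 rose over both ages, 2 fell and 13 were not called, with a median log2 fold change of 0.10. These and the following counts over both ages stand against 21.9% of all tested genes called higher and 19.6% called lower. Over both ages the share of rises was thus not far from that of all genes, but the ages differed. At 5 days 9 of the 21 rose and 0 fell, where 17.6% of all tested genes were higher and 16.7% lower. At 10 days 0 rose and 1 fell, where 16.4% of all tested genes were higher and 12.9% lower (edgeR). Eif5a, which relieves stalled ribosomes, rose by 0.85 ± 0.18 on the log2 scale, and Eef1b2, a nucleotide exchange factor of elongation, fell, with -0.47 ± 0.14 (SE; edgeR, adjusted p = 0.00166 and 0.0131). Btf3, of the nascent chain complex, rose by 0.48 ± 0.13 and Hspa14, a ribosome-bound chaperone, by 0.54 ± 0.15 (SE; edgeR, adjusted p = 0.00812 and 0.011).

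Of 43 initiation factors, 13 rose, 4 fell and 26 were not called, where 21.9% of all tested genes were higher and 19.6% lower, with a median of 0.24. Eif4h, a helper of the cap helicase, rose by 0.86 ± 0.13 on the log2 scale, Eif4e2, a cap-binding homologue, by 0.85 ± 0.14, and Eif6, which keeps free large subunits apart, by 0.95 ± 0.16 (SE; edgeR, adjusted p = 0.000128, 0.000226 and 0.000258). Eif4a2, one of the helicase paralogs, fell, with a log2 fold change of -0.86 ± 0.12 (SE; edgeR, adjusted p = 6.22e-05). By age, 18 of the 43 rose and 3 fell at 5 days, where 17.6% of all tested genes were higher and 16.7% lower. At 10 days 6 rose and 3 fell, where 16.4% of all tested genes were higher and 12.9% lower (edgeR).

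Of 47 genes of ribosome assembly and RNA polymerase I, 12 rose over both ages, 4 fell and 31 were not called, with a median of 0.14. The rises were near the 21.9% of all tested genes and the falls below their 19.6%. Bysl, of small subunit assembly, rose by 1.43 ± 0.22 on the log2 scale, Nolc1, a nucleolar chaperone, by 0.97 ± 0.18, and Nhp2, of the pseudouridylation complex, by 1.02 ± 0.20 (SE; edgeR, adjusted p = 0.0001, 0.000599 and 0.000775). Wdr12, which with Pes1 and Bop1 matures the large subunit RNA, fell, with a log2 fold change of -1.82 ± 0.17 (SE; edgeR, adjusted p = 8.64e-07). By age, 2 of these 47 genes rose and 9 fell in PD-1+ cells at 10 days, where 16.4% of all tested genes were higher and 12.9% lower. At 5 days 23 of the 47 rose and 1 fell, where 17.6% of all tested genes were higher and 16.7% lower. The interaction was called for 8 of them, all with a lower PD-1 fold change at 10 days, as for 0.923% of all tested genes.

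Of 19 genes of growth signalling to the ribosome, 1 rose, 3 fell and 15 were not called, both counts below the 21.9% higher and 19.6% lower of all tested genes. Rps6ka1, an S6 kinase of the Ras pathway, rose by 0.67 ± 0.13 on the log2 scale. Pdcd4, an inhibitor of the initiation helicase, Tsc1, an inhibitor of mTOR signalling, and Rps6ka3 fell, with log2 fold changes of -1.68 ± 0.21, -1.17 ± 0.23 and -1.0 ± 0.19 (SE; edgeR, adjusted p = 1.70e-05, 0.00104 and 0.000769, against 0.000656 for Rps6ka1).

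The mitochondrial ribosomal proteins, nuclear-encoded parts of the separate ribosome inside mitochondria, lay on the other side of 0. Of 76 tested, 31 rose in PD-1+ cells over both ages, 2 fell and 43 were not called, where 21.9% of all tested genes were higher and 19.6% lower, with a median of 0.52 against -0.44 for the cytosolic members. The smallest p-values were those of Mrps6, with a log2 fold change of 1.74 ± 0.20, Mrpl40, with 1.56 ± 0.23, Mrpl16, with 1.45 ± 0.23, and Mrpl18, with 0.89 ± 0.14 (SE; edgeR, adjusted p = 7.12e-06, 7.37e-05, 0.000142 and 0.000163). The difference between both families was not tested as such.

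Between 10 and 5 days in PD-1+ cells, the translation lists had falls and no rises apart from growth signalling. There fell 11 of 21 elongation factors, 12 of 43 initiation factors, 21 of 47 assembly genes and 13 of 76 mitochondrial ribosomal proteins (edgeR), where 6.98% of all tested genes were called lower. In PD-1- cells 1 mitochondrial ribosomal protein fell and no gene of the other lists was called.

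**Figure D5:**
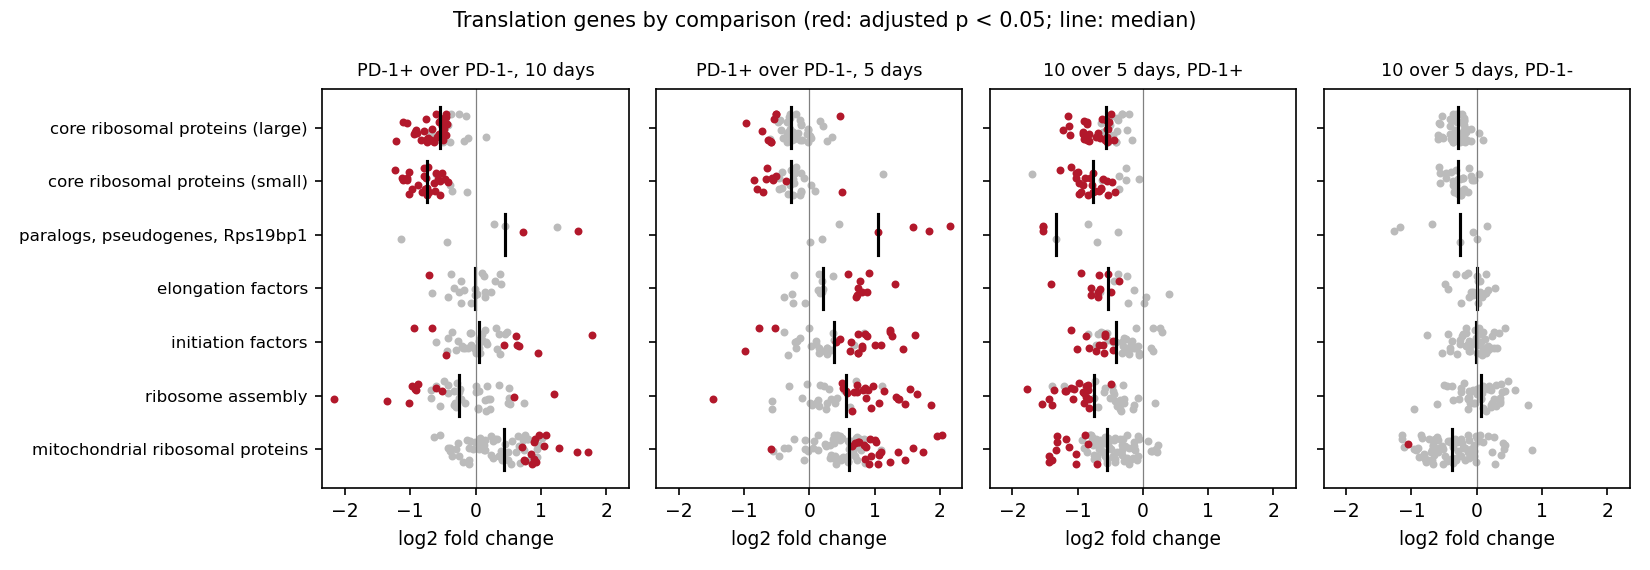
Log2 fold changes (x axis) of single genes in 4 comparisons for core members by subunit, the other 7 members and 4 lists of translation genes (points are genes, red for adjusted p below 0.05 by edgeR, black lines are medians). In PD-1+ against PD-1- cells the core members lay mostly below 0 and the mitochondrial ribosomal proteins mostly above 0 at both ages, and in PD-1- cells only 1 gene was red between the ages.

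The direction of the members' median did not depend on the scaling. Library totals moved the median of all genes to -0.17 over both ages and upper-quartile factors moved it to -0.10. The medians of members under these were -0.59 and -0.52. A change of scaling shifts the fold changes of all genes nearly alike. The distance of members from all genes could therefore hardly change, and its sameness is no check. Core members with a fold change below 0 over both ages numbered 72 or 73 of 77 under TMM, DESeq2, upper-quartile factors and library totals. TMM factors computed without the members gave 54 falls. Adding the counts of 287 pseudogene rows to their members, a choice made after seeing the data, also gave 54. Those rows held 5984 counts, against 786484 in the members, so few calls could change. The addition does not show how many reads were lost to copies.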

How the data were processed

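The authors deposited raw read counts per gene symbol in 1 table with a column for each of the 8 libraries; every symbol of the table was read as a gene. The submitters' processing notes list STAR 2.5.4, featureCounts and mm10. No source used here gives the annotation, the strand setting or the treatment of reads that fit more than 1 place, so members and their near-identical copies may have shared or lost counts.

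Counts were tested with edgeR 4.0.16 in R 4.3.3 (filterByExpr over the 4 groups, TMM factors, robust quasi-likelihood F tests, Benjamini-Hochberg adjustment over 11490 genes, called at an adjusted p below 0.05). PD-1 over both ages came from a model with terms for age and PD-1, and the other 5 comparisons from a model of the 4 groups. Standard errors come from the fold change and its F value. CPM values use TMM-scaled totals, except those of cell type markers and member shares, which use library totals. The ± of a mean is the SD between libraries. Libraries of the same group differed by more than sampling noise (chi-square per degree of freedom over members of 2.76 to 14.9), so all were counted singly. DESeq2 1.42.0 was an alternative. Transcript lengths, 25-base words and gene types came from GENCODE M21 (GRCm38), and start windows from RefSeq (GRCm38.p6). Words were called shared when they occur in a transcript of another gene.

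Members and gene lists were chosen with earlier results of these data known. Named members are the 6 largest called changes in each direction over both ages, up to 4 per direction in each other comparison, a fixed set of proteins with known roles, the extremes of level per length and of the count minimum, and up to 4 genes of each other list with the smallest p. Some genes that this rule gives are not printed, and further genes named as part of a complete count were chosen after their values were seen. Alternatives were other scalings, no count filter, a replicate block, single libraries left out, both male libraries left out and, added after the data were seen, pseudogene rows summed with their members and levels per length of the longest coding transcript.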

Additional observations from a re-analysis of the deposited data

Results flagged for a closer look

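Rps19 was flagged because its PD-1 effect differed between the ages in the interaction test. The PD-1 log2 fold change was -1.24 at 10 days and -0.28 at 5 days, a difference of -0.96 ± 0.24 (SE; edgeR, Benjamini-Hochberg adjusted p = 0.0453). Its level was 137 and 188 CPM at 10 days in PD-1+ cells, against 394 and 391 CPM at 5 days. In PD-1- cells it was 349 and 420 CPM at 10 days, against 445 and 509 CPM at 5 days. Leaving out single libraries gave differences from -1.20 to -0.75. As described above, the call was lost in most of these runs and with library totals, and a single call among the members is near the background. No cause was tested.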

How the results depend on the processing

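No called value of a named member changed sign under any alternative. The numbers of members called moved as follows, and those of all tested genes moved in the same runs too. With single libraries left out, members lower over both ages ranged from 28 to 56 and higher from 2 to 4, lower at 10 days from 30 to 59 and higher from 0 to 2, lower at 5 days from 7 to 21, lower at 10 against 5 days in PD-1+ cells from 29 to 59, and lower in the interaction from 0 to 1. Without both male libraries these lower counts were 29 over both ages, 0 at 5 days and 0 in the interaction. Library totals in place of TMM gave 47 lower at 5 days, 35 lower with age in PD-1+ cells and 0 in the interaction. Without a filter on low counts 1 member was lower with age in PD-1- cells and 2 in the interaction, and DESeq2 gave 3 in the interaction. With upper-quartile factors and with TMM factors from genes that are not members, all these counts stayed within 1.5 times. The labels do not say what a replicate number marks, so the main fit did not pair the libraries. Deviations of same-numbered libraries of the 2 populations correlated at 0.0938 at 5 days and 0.114 at 10 days over all tested genes. Each library correlated best with its own number. With 2 libraries per group the deviations mirror each other, so within an age this says only that the correlation is above 0. At 5 days both male libraries had the same number, so a pairing by animal remains possible. A replicate block, fitted within age, gave 38 members lower over both ages, 62 at 10 days, 19 at 5 days and 5 in the interaction, and age effects could not be fitted with it; over both ages it ended the calls of Rpl3, Rpl7 and Rpl39 (edgeR, adjusted p = 0.0577, 0.0566 and 0.0544). The causes of these shifts were not tested. Low counts limit Rps3a3, Rpl24 and Rps19bp1, which had 103, 166 and 201 counts in all.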

Other observations

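Rps2, a core protein of the small subunit, had the largest standard error of its fold change among core members over both ages. In PD-1+ cells it had 165 and 622 CPM at 10 days and 1316 and 1227 CPM at 5 days. In PD-1- cells it had 487 and 714 CPM at 10 days and 740.1 and 422 CPM at 5 days. The PD-1+ libraries at 5 days were highest and PD-1+ 10-day replicate 1 lowest. Its log2 fold change over both ages was 0.26 ± 0.60 (SE) and was not called in any comparison. Rps2 shares 79.1% of its 25-base words with other annotated genes.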
